A study of Mus musculus with 31 samples.

Results

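The 7 MAP kinase kinases, Map2k1 to Map2k7, were examined in CPu, the caudate putamen of the striatum, of WT and Brd1+/- mice administered vehicle or the tricyclic antidepressant imipramine (IMN). The family was chosen by name, and it was taken up because Map2k3 was much lower in Brd1+/- mice than in WT mice when both had been administered vehicle. These values therefore describe why the family is shown and are given without a test. All 7 members were found among the 52636 genes of the expression table, and all 7 were above the minimum level required for fitting in every comparison.

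Values came from 31 mice labelled female, with the strain labelled C57BL/6NTac-Brd1, 8 to 11 weeks old, each represented by a single library made from a punch of frozen tissue from the right hemisphere. Brd1+/- mice carry a heterozygous targeted deletion within Brd1, which encodes a scaffold protein of histone acetyltransferase complexes, and WT mice carry both intact copies. Vehicle was administered to 8 WT and 7 Brd1+/- mice and IMN (10 mg/kg) to 8 mice of either genotype, and the groups are called WT vehicle, Brd1+/- vehicle, WT IMN and Brd1+/- IMN mice. Mice of all 4 groups, vehicle included, were injected subcutaneously and went through behavioral testing (tail suspension, open field and forced swim) before the tissue was taken, so no group was untouched.

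Signals from receptors reach the cell's machinery through chains of kinases, in which a MAP3 kinase phosphorylates a MAP kinase kinase and this in turn phosphorylates a MAP kinase on both a threonine and a tyrosine. Each MAP kinase kinase has its own targets, since Map2k1 and Map2k2 act on ERK kinases, Map2k5 on ERK5, Map2k3 and Map2k6 on p38 kinases, Map2k7 on JNK kinases and Map2k4 on JNK and p38 kinases. In the striatum, ERK signaling is known for its response to dopamine and glutamate, and the p38 and JNK kinases are known for their response to stress and cytokines. The measurements here are of mRNA and say nothing of phosphorylation.

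The genes of Map2k3, Map2k4 and Map2k6 lie on the same chromosome, in GRCm38 at chr11:60932033-60952811 (plus strand, Ensembl identifier ENSMUSG00000018932), chr11:65688243-65788297 (minus strand, ENSMUSG00000033352) and chr11:110399122-110525522 (plus strand, ENSMUSG00000020623). Their upstream sequences are shown because Map2k3 and Map2k4 both had lower levels in Brd1+/- vehicle mice while Map2k6, which like Map2k3 acts on p38 kinases, did not. Each is the run of 250 bases before the RefSeq (GRCm38.p6) start nearest to the start of the gene in GENCODE. RefSeq had 2 entries for Map2k4, 3 for Map2k6 and 2 for Map2k7, and the others were not read. The runs are printed along the gene's strand from 5′ to 3′, at chr11:60931804-60932053 (plus), chr11:65788360-65788609 (minus) and chr11:110398852-110399101 (plus). Capitals mark matches on either strand to a CRE half-site (TGACG, reverse CGTCA), an AP-1 site (TGANTCA) or a GC box (GGGCGG, reverse CCGCCC), and no match overlaps another in these windows.
Map2k3: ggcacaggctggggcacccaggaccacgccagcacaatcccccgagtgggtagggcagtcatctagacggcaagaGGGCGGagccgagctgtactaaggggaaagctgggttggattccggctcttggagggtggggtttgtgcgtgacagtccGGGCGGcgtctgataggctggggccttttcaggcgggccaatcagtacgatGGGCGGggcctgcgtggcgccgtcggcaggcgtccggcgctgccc
Map2k4: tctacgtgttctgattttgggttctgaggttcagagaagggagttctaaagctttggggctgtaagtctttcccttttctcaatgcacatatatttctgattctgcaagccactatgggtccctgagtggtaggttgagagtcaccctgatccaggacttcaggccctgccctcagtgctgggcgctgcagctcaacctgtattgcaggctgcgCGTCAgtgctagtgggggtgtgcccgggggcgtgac
Map2k6: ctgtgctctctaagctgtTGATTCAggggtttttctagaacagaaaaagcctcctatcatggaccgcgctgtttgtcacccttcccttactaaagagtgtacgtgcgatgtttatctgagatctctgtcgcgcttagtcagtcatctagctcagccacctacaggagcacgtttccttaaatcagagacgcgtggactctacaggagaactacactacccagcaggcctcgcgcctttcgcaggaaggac
The Map2k3 window held 3 GC boxes and was 67.6% G and C. The Map2k4 window held 1 CRE half-site, and the Map2k6 window held 1 AP-1 site. Of 32851 promoter windows of the same length, 32.7% held a GC box, 17.8% a CRE half-site and 6.75% an AP-1 site, and a match describes these letters only, not a site of binding. Among the other members, Map2k1 had 4 GC boxes and 2 CRE half-sites, Map2k2 and Map2k5 had 1 GC box each, and no match was found in the window of Map2k7.

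Expression is given as TPM, a level per gene length within a fixed total for each library, so that levels of different genes can be set side by side. Over all 31 mice, Map2k1 had the highest mean level at 144 TPM, followed by Map2k4 at 81.5 TPM, Map2k2 at 68.9 TPM and Map2k7 at 46.8 TPM. Map2k5 followed at 19.0 TPM, and the p38 activators Map2k6 and Map2k3 were the least abundant at 6.17 and 4.95 TPM. Map2k4 and Map2k2 were not separated by the spread between mice, since Map2k4 was the higher in 23 of 31 mice, and neither were Map2k6 and Map2k3, with Map2k6 higher in 22 of 31. The other neighbours kept their order in at least 29 of 31 mice. In WT vehicle mice the order of the last pair was turned, with Map2k6 above Map2k3 in only 2 of 8 mice, whereas Map2k6 was the higher in 7 of 7 Brd1+/- vehicle mice. Map2k1 is overlapped on the opposite strand by 3 genes, among them the protein-coding gene Uchl4, and Map2k7 overlaps the predicted gene Gm49320 on its own strand, so reads from these loci may not be cleanly divided between genes.

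**Figure D1:**
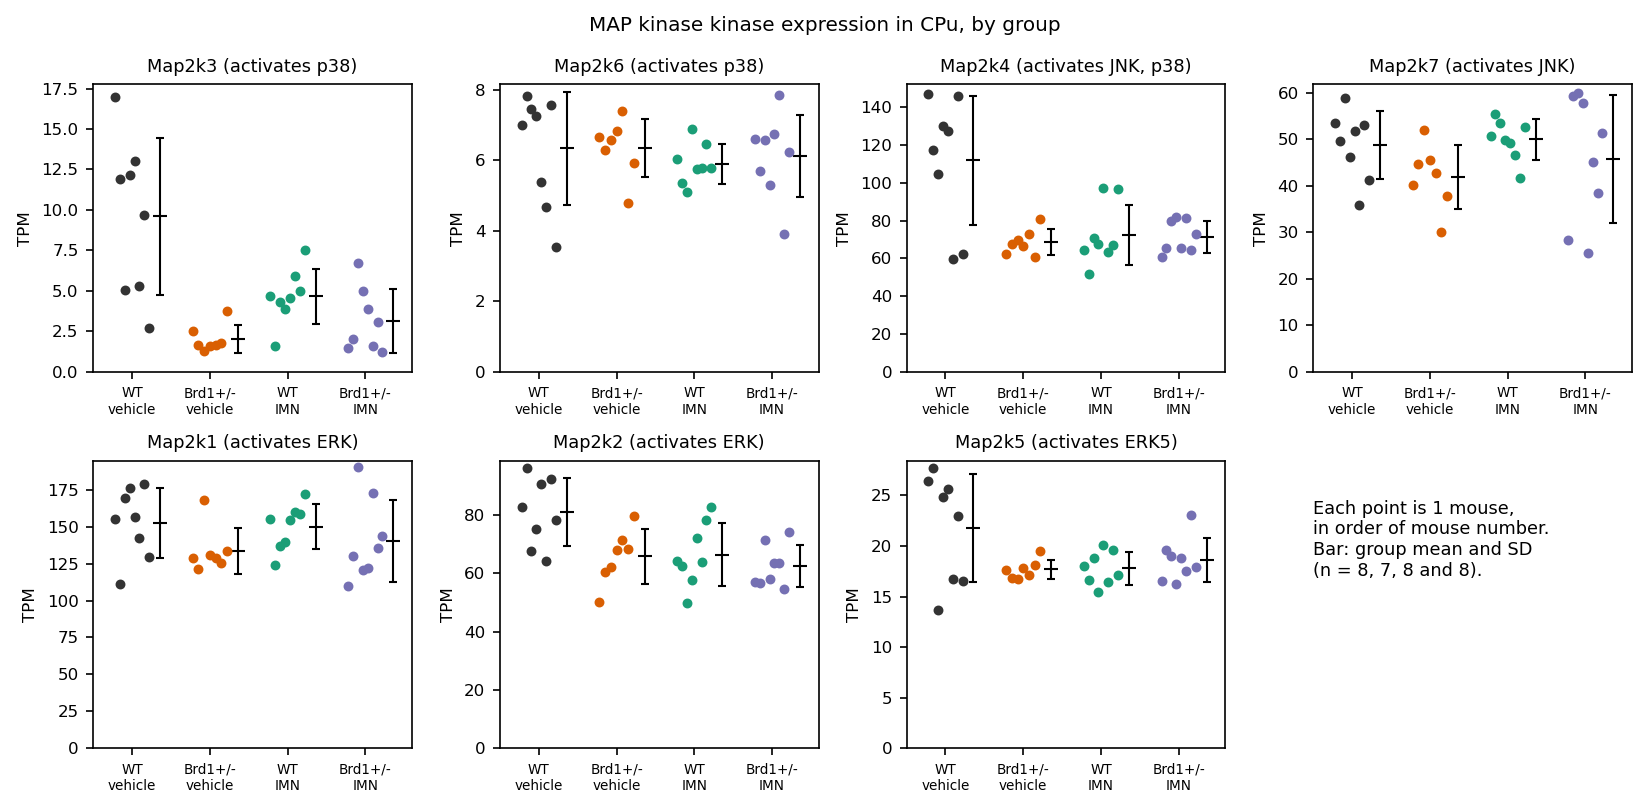
TPM of each MAP kinase kinase (vertical axes, starting at 0) in every mouse of the 4 groups, where each point is 1 mouse and the bars give the group mean and SD (n = 8, 7, 8 and 8). Map2k3 ranged from 2.68 to 17.0 TPM in WT vehicle mice and from 1.27 to 3.75 TPM in Brd1+/- vehicle mice, while Map2k6 had means of 6.33 and 6.35 TPM.

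Brd1 separated the genotypes as labelled. It ranged from 18.3 to 26.9 TPM in WT vehicle mice and from 11.1 to 16 TPM in Brd1+/- vehicle mice, and from 14.6 to 22.5 TPM and from 11.3 to 13.8 TPM under IMN, without overlap between genotypes in either treatment. The difference was -0.71 ± 0.10 (SE, limma adjusted p = 0.0556) under vehicle and -0.60 ± 0.08 (SE, limma adjusted p = 0.0396) under IMN. The libraries were less uniform in tissue content. A score of 10 markers of cortical excitatory neurons, all of them detected in every group, was higher in 6 of 8 WT vehicle mice, all but mice 6 and 8, than in any Brd1+/- vehicle mouse. The summed level of these markers ran from 113 to 2366 TPM in WT vehicle mice, from 124 to 328 TPM in Brd1+/- vehicle mice, from 103 to 1170 TPM in WT IMN mice and from 106 to 473 TPM in Brd1+/- IMN mice. The summed level of 10 markers of striatal projection neurons ran from 276 to 10474 TPM, from 8425 to 9819 TPM, from 5050 to 9300 TPM and from 6776 to 9749 TPM in the same groups. For 6 markers of oligodendrocytes it ran from 934 to 6415, 947 to 2835, 925 to 3259 and 888 to 4971 TPM. For 6 markers of astrocytes it ran from 458 to 849, 479 to 697, 427 to 694 and 501 to 648 TPM. WT vehicle mice 1 and 5, the highest in Map2k3, had 6415 and 3817 TPM of the oligodendrocyte markers. WT vehicle mouse 2 had nearly none of the defining striatal markers, with 1.37 TPM of Drd1, 0.748 TPM of Drd2 and 1.02 TPM of Adora2a, mouse 1 of the same group had 29.7, 29.9 and 26.2 TPM, and in the other mice these genes were at or above 45.9, 67.5 and 63.0 TPM. WT vehicle mouse 7, labelled female as all others, had a summed level of 26.8 TPM over 4 Y-linked genes, which was at most 0.188 TPM elsewhere. Differences of the members that rest on WT vehicle mice 1 and 2 or on mouse 7 are given below also without them.

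Map2k3 was the member that differed most between the vehicle administered groups. It ranged from 2.68 TPM through a median of 10.8 to 17.0 TPM in WT mice, and from 1.27 through 1.64 to 3.75 TPM in Brd1+/- mice. Of the WT mice, 7 of 8 lay above every Brd1+/- mouse, and the exception was mouse 8, which had few cortical markers. The mean level was 9.60 ± 4.86 TPM (SD, n = 8) in WT mice and 2.02 ± 0.85 TPM (SD, n = 7) in Brd1+/- mice, 4.74-fold lower. On the log2(TPM + 1) scale, which understates changes of low genes, the difference was -1.69 ± 0.30 (SE). The median difference of all genes in this comparison was -0.13, which median-of-ratios scaling moved to 0.0023, and Map2k3 then differed by -1.53.

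Among WT vehicle mice, levels of Map2k3 moved with the cortical markers in most. The 2 WT vehicle mice with few cortical markers, mice 6 and 8, had 5.29 and 2.68 TPM of Map2k3, against 9.68 to 17.0 TPM in mice 1, 2, 4, 5 and 7. Mouse 3 had 5.06 TPM with many cortical markers. With the cortical score as a covariate the difference between the vehicle administered groups was -1.23 ± 0.27 (SE), and with the striatal score it was -1.25 ± 0.29 (SE). Without WT mice 1 and 2, a choice made after seeing the data like that of the striatal score, it was -1.46 ± 0.29 (SE), and without WT mouse 7 it was -1.66 ± 0.32 (SE). Beyond these values, the part of tissue content in the difference was not tested. In tissue punches, fewer cells of a type and less RNA per cell cannot be told apart.

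**Figure D2:**
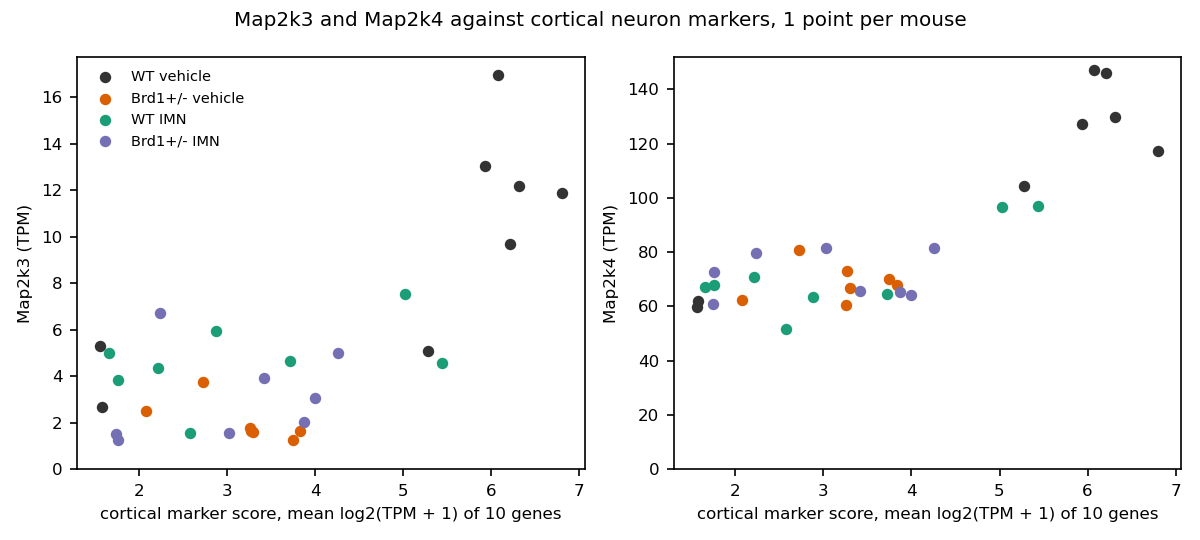
TPM of Map2k3 (left) and Map2k4 (right) against the cortical marker score, the mean log2(TPM + 1) of 10 genes, with 1 point per mouse and a color for each group. The 5 mice with the highest scores, all WT vehicle mice, had from 9.68 to 17.0 TPM of Map2k3 and from 117 to 147 TPM of Map2k4.

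Map2k6, the other dedicated activator of p38, had nearly the same mean level in both vehicle administered groups, 6.33 ± 1.59 TPM (SD, n = 8) and 6.35 ± 0.82 TPM (SD, n = 7). It ranged from 3.53 through a median of 7.13 to 7.82 TPM in WT mice and from 4.80 through 6.57 to 7.41 TPM in Brd1+/- mice, and the ranges overlapped almost fully. The difference was 0.03 ± 0.15 (SE) on the log2 scale, or 0.20 under median-of-ratios scaling and 0.23 under quantile normalization. It was 0.11 without WT mice 1 and 2 and 0.07 without WT mouse 7, and its sign turned, with values down to -0.06, when WT mouse 6, WT mouse 8 or Brd1+/- mouse 5 was left out, when mice were weighted and when blocked by mouse number. WT mice 6 and 8 were the lowest in Map2k6 as well as in cortical markers, and with the cortical score as a covariate the difference was 0.27 ± 0.12 (SE).

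The share of Map2k3 in the summed TPM of Map2k3 and Map2k6 is free of the scaling between libraries. It ranged from 40.5% to 70.8% in WT vehicle mice and from 16.2% to 38.8% in Brd1+/- vehicle mice. The groups did not overlap in this share, and WT mice 6 and 8, with few cortical markers, had 53.1% and 43.2%. The mean share was 57.2% ± 11.3 (SD, n = 8) against 23.9% ± 7.9 (SD, n = 7). As the share holds the values of Map2k3 that led to the choice of the family, it is a description only. Among all 7 members together, Map2k3 made up 2.14% of the TPM in WT vehicle mice and 0.604% in Brd1+/- vehicle mice.

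**Figure D3:**
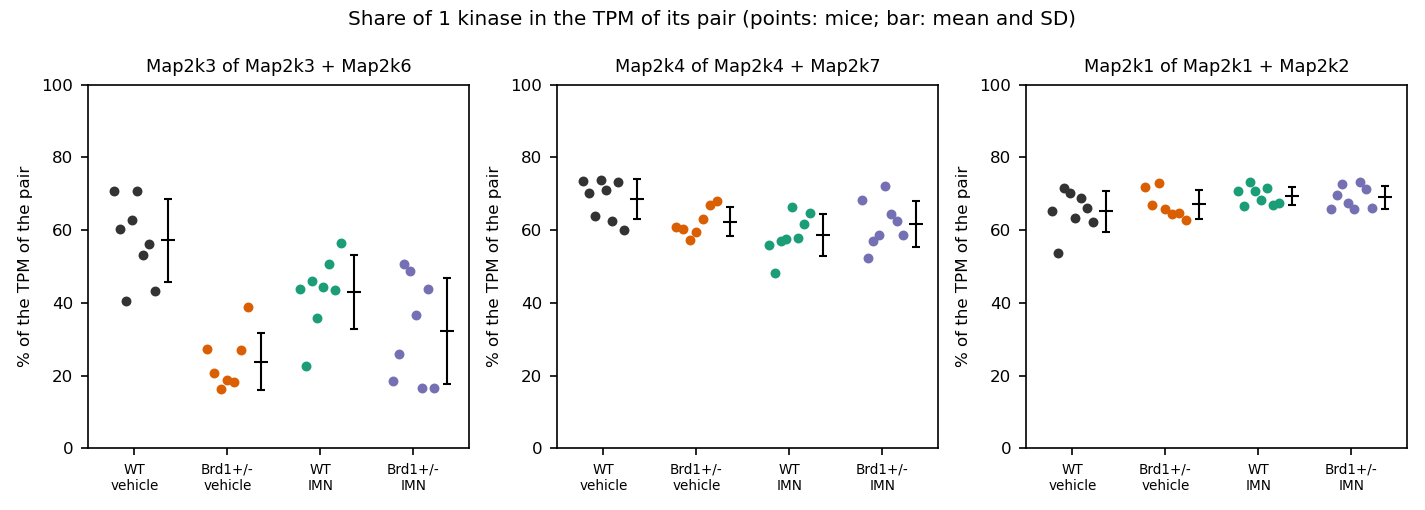
Share of 1 kinase in the summed TPM of a pair with the same kind of substrate (vertical axis, percent of the pair), with 1 point per mouse and bars for the group mean and SD (n = 8, 7, 8 and 8). The share of Map2k3 lay between 40.5% and 70.8% in WT vehicle mice and between 16.2% and 38.8% in Brd1+/- vehicle mice, whereas the share of Map2k1 in its pair had group means from 65.1% to 69.4%.

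Map2k4, which activates JNK and p38, had the next largest difference between the vehicle administered groups. It ranged from 59.8 through a median of 122 to 147 TPM in WT mice and from 60.5 through 67.7 to 80.6 TPM in Brd1+/- mice. WT mice 6 and 8 were at 59.8 and 62.1 TPM, within or just below the Brd1+/- range, and the other 6 lay above all Brd1+/- mice. The difference was -0.63 ± 0.19 (SE) on the log2 scale, or -0.44 under median-of-ratios scaling and -0.42 under quantile normalization. It was -0.24 ± 0.10 (SE) with the cortical score as a covariate, -0.40 ± 0.19 (SE) with the striatal score, -0.53 ± 0.20 (SE) without WT mice 1 and 2 and -0.56 ± 0.19 (SE) without WT mouse 7. Map2k7, the dedicated activator of JNK, ranged from 35.9 through 50.7 to 58.8 TPM in WT mice and from 30.0 through 42.7 to 52.1 TPM in Brd1+/- mice. The ranges overlapped, and the difference of -0.22 ± 0.12 (SE) was close to the median of all genes. It was -0.19 without WT mice 1 and 2 and -0.20 without WT mouse 7, but -0.03 under both median-of-ratios scaling and quantile normalization and -0.06 with the cortical score as a covariate. The share of Map2k4 in the sum of Map2k4 and Map2k7 was 68.5% ± 5.5 (SD, n = 8) in WT mice and 62.3% ± 4.0 (SD, n = 7) in Brd1+/- mice.

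The activators of the ERK kinases and ERK5 differed less than Map2k3 and Map2k4 between the vehicle administered groups. Map2k1 ranged from 111 through a median of 156 to 179 TPM in WT mice and from 122 through 129 to 168 TPM in Brd1+/- mice, with a difference of -0.18 ± 0.10 (SE), which turned to 0.02 under median-of-ratios scaling and 0.04 under quantile normalization. Map2k2 ranged from 64.2 through 80.5 to 96.1 TPM in WT mice and from 50.2 through 68.1 to 79.7 TPM in Brd1+/- mice, with a difference of -0.29 ± 0.11 (SE), or -0.10 under median-of-ratios scaling. Map2k5 ranged from 13.7 through 23.9 to 27.7 TPM in WT mice and from 16.8 through 17.7 to 19.5 TPM in Brd1+/- mice, with a difference of -0.25 ± 0.14 (SE), or -0.07 under median-of-ratios scaling. For each of these genes the ranges overlapped. Without WT mice 1 and 2 the difference of Map2k5 was -0.14, that of Map2k1 -0.24 and that of Map2k2 -0.24, and without WT mouse 7 they were -0.23, -0.14 and -0.27. With the cortical score as a covariate they were -0.06, -0.12 and -0.18, and with the striatal score -0.02, -0.27 and -0.18. The spread of Map2k5 was wide in WT mice (SD 5.35 TPM, n = 8) and narrow in Brd1+/- mice (SD 0.955 TPM, n = 7), since 5 WT mice lay above every Brd1+/- mouse and WT mouse 3, at 13.7 TPM, below all others. The summed TPM of the 7 members was 431 ± 68 TPM (SD, n = 8) in WT mice and 336 ± 26 TPM (SD, n = 7) in Brd1+/- mice.

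The rule that chose the family used no values of IMN administered mice, so here the members were tested, although earlier results of these data were known when the family was taken up. Whether Brd1+/- mice differed from WT mice under IMN was asked with limma, fitted over all genes and adjusted by the Benjamini-Hochberg method. Of the 7 members, 0 differed at p under 0.01, 0 at p under 0.05 and 0 at an FDR of 5%, where 0.703% of all 23339 genes tested passed p under 0.01 (0.189% with the higher level in Brd1+/- mice and 0.514% with the lower). Among all genes 3.92% passed p under 0.05 and 1 gene passed the FDR, so counts of 0 among 7 genes say little about the members. Map2k3 ranged from 1.57 through a median of 4.62 to 7.52 TPM in WT mice and from 1.25 through 2.53 to 6.73 TPM in Brd1+/- mice. Of the Brd1+/- mice 3 lay below every WT mouse, only WT mouse 8 lay above every Brd1+/- mouse, and the groups otherwise overlapped. The difference was -0.53 ± 0.27 (SE) on the log2 scale (limma adjusted p = 0.998), and an exact permutation test over the 12870 regroupings of these mice gave p = 0.0942. It stayed between -0.68 and -0.42 with any single mouse left out, where the smallest limma adjusted p was 0.847, and the smallest over the other alternatives was 0.945. Before adjustment Map2k3 was at p under 0.05 without WT mouse 2, without Brd1+/- mouse 3, without Brd1+/- mouse 4 and with mice weighted by limma. The share of Map2k3 in its pair was 42.9% ± 10.1 (SD, n = 8) in WT mice and 32.2% ± 14.5 (SD, n = 8) in Brd1+/- mice, and the ranges from 22.6% to 56.6% and from 16.6% to 50.5% overlapped.

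The other members had smaller differences between genotypes under IMN. Map2k7 had the largest of these, -0.18 ± 0.16 (SE, limma adjusted p = 0.998). It was spread more widely in Brd1+/- mice, from 25.5 through a median of 48.2 to 60.1 TPM, than in WT mice, from 41.7 through 50.3 to 55.5 TPM, since Brd1+/- mice 1, 5 and 7 lay below all WT mice and mice 2, 3 and 4 above them. Map2k1 differed by -0.11 ± 0.10 (SE), Map2k2 by -0.08 ± 0.10 (SE) and Map2k5 by 0.06 ± 0.08 (SE). The p38 activator Map2k6 differed by 0.03 ± 0.10 (SE). Map2k4 ranged from 51.5 through 67.4 to 97.0 TPM in WT mice and from 60.8 through 69.1 to 81.7 TPM in Brd1+/- mice, and its difference was 0.0021 ± 0.12 (SE, limma adjusted p = 0.9998). The exact permutation tests of these 6 genes gave p from 0.323 to 0.988. At these standard errors, differences of the size of that in Map2k5 or Map2k6 could not be told from none.

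**Figure D4:**
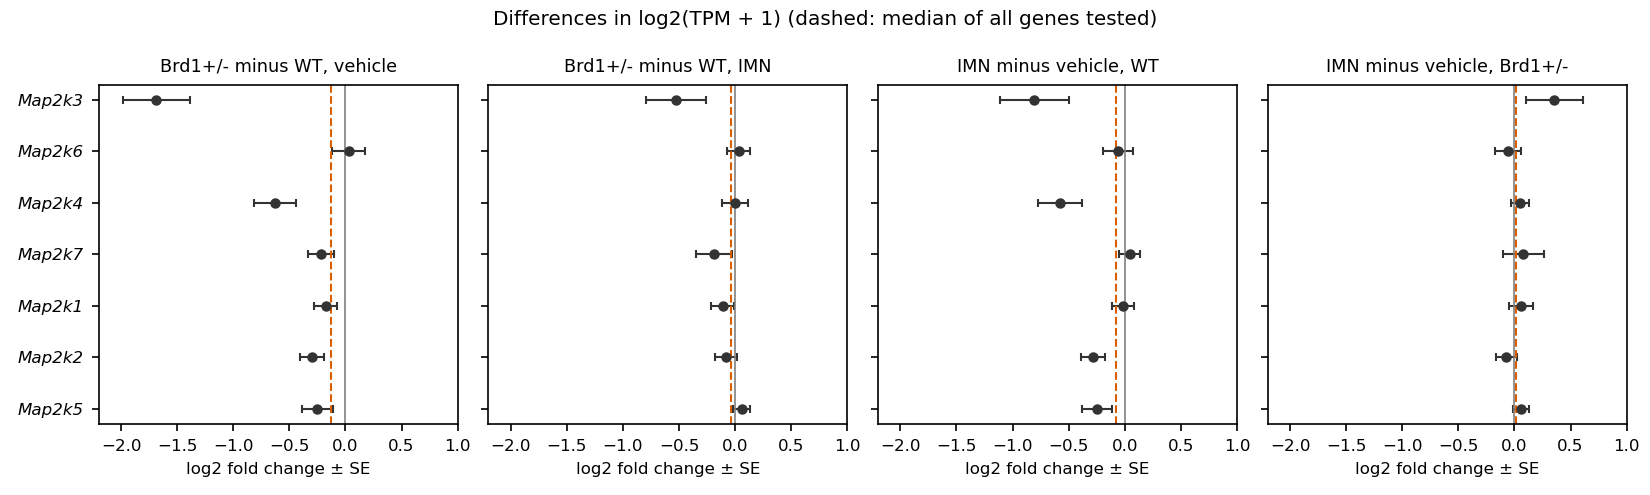
Differences in log2(TPM + 1) between groups for each member (points) with their SE (bars) in the 4 comparisons, and the median of all genes tested as a dashed line. Map2k3 was at -1.69 under vehicle, -0.53 under IMN, -0.80 for IMN in WT mice and 0.36 for IMN in Brd1+/- mice, and Map2k6 lay between -0.06 and 0.03 in all of them.

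Set against the vehicle administered mice, WT IMN mice had lower levels of Map2k3 and Map2k4, and Brd1+/- IMN mice had a slightly higher mean of Map2k3. These comparisons share their vehicle administered mice with the one that led to the choice of the family, so they are given side by side without a test, and a test of the difference between genotypes in the response to IMN was not made for the same reason. In WT mice the mean level of Map2k3 was 9.60 TPM under vehicle and 4.68 ± 1.70 TPM (SD, n = 8) under IMN, a difference of -0.80 ± 0.30 (SE) on the log2 scale. The 5 highest WT vehicle mice lay above all WT IMN mice. In Brd1+/- mice the mean was 2.02 TPM under vehicle and 3.13 ± 1.97 TPM (SD, n = 8) under IMN, a difference of 0.36 ± 0.26 (SE), and the ranges overlapped. The IMN administered mice of both genotypes thus had mean levels between those of the vehicle administered groups.

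For Map2k4 the WT IMN mice were at 72.3 ± 16.1 TPM (SD, n = 8) against 112 TPM under vehicle, a difference of -0.58 ± 0.20 (SE), with 6 of the 8 vehicle administered mice above all IMN administered mice. In Brd1+/- mice Map2k4 was at 68.7 TPM under vehicle and 71.4 ± 8.5 TPM (SD, n = 8) under IMN, with a difference of 0.05 ± 0.08 (SE). The differences in WT mice were smaller with the markers taken into account. With the cortical score as a covariate they were -0.35 ± 0.26 (SE) for Map2k3 and -0.20 ± 0.11 (SE) for Map2k4, and without WT vehicle mice 1 and 2 they were -0.58 ± 0.31 (SE) and -0.48 ± 0.21 (SE). Without WT vehicle mouse 7 they were -0.78 ± 0.32 (SE) and -0.51 ± 0.20 (SE). Of the other members in WT mice, Map2k2 differed by -0.28 ± 0.11 (SE) and Map2k5 by -0.25 ± 0.13 (SE), or by -0.23 and -0.13 without WT vehicle mice 1 and 2, beside a median of all genes of -0.08, and Map2k1, Map2k6 and Map2k7 by at most 0.06 in either direction. Without WT vehicle mice 1 and 2 Map2k1, Map2k6 and Map2k7 differed by -0.08, 0.02 and 0.08. Without WT vehicle mouse 7 they differed by 0.02, -0.02 and 0.06, Map2k2 by -0.26 and Map2k5 by -0.23. The values of all members in WT mice moved with the scaling. Map2k3 differed by -0.69 under both median-of-ratios scaling and quantile normalization, and Map2k4 by -0.45 and -0.41. Under median-of-ratios scaling and quantile normalization Map2k2 differed by -0.16 and -0.12, Map2k5 by -0.12 and -0.11, Map2k1 by 0.11 and 0.17, Map2k6 by 0.05 and 0.06 and Map2k7 by 0.17 and 0.19, so that the signs of Map2k1 and Map2k6 turned. In Brd1+/- mice the members other than Map2k3 differed by at most 0.08 in either direction. With the striatal score as a covariate Map2k3 differed by 0.17 in these mice, and the signs of Map2k7 (-0.20), Map2k1 (-0.10) and Map2k4 (-0.03) turned.

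Within the 16 IMN administered mice, the relation of each member to the cortical score was examined as Pearson's r and Spearman's rho, 14 relations in all, with permutation tests. Map2k3 had r = 0.34 (permutation p = 0.197, adjusted p = 0.541) and rho = 0.318 (permutation p = 0.232, adjusted p = 0.541), with r = 0.375 within WT mice and r = 0.366 within Brd1+/- mice, and r = 0.136 without the 2 mice farthest from the median score, WT mice 5 and 8. Map2k4 had r = 0.548 (permutation p = 0.0271, adjusted p = 0.379) and rho = 0.362 (permutation p = 0.169, adjusted p = 0.541). This relation rested on WT mice 5 and 8, which had 97.0 and 96.6 TPM of Map2k4, since without them r was 0.0946. Within WT mice r was 0.743 and within Brd1+/- mice 0.0651. Of the other members, r ranged from -0.376 for Map2k6 to 0.284 for Map2k5. None of the 14 relations passed the adjustment.

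Genes that varied like Map2k3 were sought among genes with a mean of at least 1 TPM, by Pearson's r of log2(TPM + 1), as a description without a test. Over all 31 mice and 17347 genes, the closest was Taok3 (r = 0.852), a MAP3 kinase of the stress pathways, followed by Fbxo27 (r = 0.851), an F-box protein, Lztr1 (r = 0.847), an adaptor in the ubiquitination of RAS proteins, Actr10 (r = 0.845), a subunit of dynactin, and Gdap1l1 (r = 0.839). The mean levels of Taok3 were 30.6, 18.0, 23.7 and 20.9 TPM in WT vehicle, Brd1+/- vehicle, WT IMN and Brd1+/- IMN mice. Of the family, Map2k4 was the closest (r = 0.777, rank 247), ahead of Map2k5 (r = 0.634) and Map2k2 (r = 0.573), and Map2k6 was the least alike (r = 0.151). Under median-of-ratios scaling r was 0.698 for Map2k4, 0.318 for Map2k5, 0.248 for Map2k2 and -0.211 for Map2k6, and that of Map2k1 went from 0.409 to -0.0211. All points share the fixed sum of TPM, the points include the WT vehicle mice rich in cortical markers, and the part of these mice in the order was not tested. Over the 16 IMN administered mice alone and 17343 genes, the 5 closest genes were Gm44623 (r = 0.828), Mapk14 (r = 0.794), Anp32a (r = 0.788), Gm10482 (r = 0.784) and Thap2 (r = 0.781), and none of these was among the first 5 over all mice. Mapk14 encodes p38α, a substrate of Map2k3, and was no longer among the first 5 under median-of-ratios scaling. In the same 16 mice Map2k4 had r = 0.449 and Map2k6 r = -0.13.

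The substrates of the family were then read in the same comparisons. Of the p38 kinases, Mapk14 had mean levels of 36.7 TPM in WT vehicle mice and 28.6 TPM in Brd1+/- vehicle mice, with a log2 difference of -0.33 ± 0.14 (SE, limma adjusted p = 0.122). Mapk11 ranged from 2.49 through a median of 36.9 to 60.6 TPM in WT vehicle mice and from 2.37 through 5.12 to 6.49 TPM in Brd1+/- vehicle mice, with a difference of -2.01 ± 0.58 (SE, limma adjusted p = 0.0559). Mapk12 ranged from 1.07 through 5.86 to 8.80 TPM and from 0.754 through 1.32 to 1.85 TPM, with a difference of -1.24 ± 0.32 (SE, limma adjusted p = 0.0556). Neither passed an FDR of 5% in this fit. Both passed with genes limited to a mean TPM of at least 1 (limma adjusted p = 0.0462 for Mapk11 and 0.0451 for Mapk12), with mice weighted, with the mouse number as a block and with all 4 groups in one fit. In these fits 10.5%, 29.5%, 15.4% and 19.5% of all genes passed as well. With the cortical score as a covariate the differences were -0.66 for Mapk11 (limma adjusted p = 0.202) and -0.55 for Mapk12 (limma adjusted p = 0.251), and with the striatal score they were -1.03 (limma adjusted p = 0.549) and -0.67 (limma adjusted p = 0.533). Without WT mice 1 and 2 they were -1.60 (limma adjusted p = 0.18) and -0.98 (limma adjusted p = 0.169). Mapk13, the remaining p38 kinase, was at most 0.707 TPM in any mouse and was listed at 0 in all mice of the Brd1+/- vehicle and WT IMN groups.

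Of the JNK kinases, Mapk10, the form best known from neurons, had 92.6 ± 31.2 TPM (SD, n = 8) in WT vehicle mice and 52.1 ± 6.5 TPM (SD, n = 7) in Brd1+/- vehicle mice, with a difference of -0.74 ± 0.20 (SE, limma adjusted p = 0.0556), or -0.32 with the cortical score as a covariate (limma adjusted p = 0.355), -0.37 with the striatal score (limma adjusted p = 0.533) and -0.57 without WT mice 1 and 2 (limma adjusted p = 0.169). Like Mapk11 and Mapk12, it passed an FDR of 5% in the 4 fits named above (limma adjusted p from 0.00118 to 0.0451), where 10.5% to 29.5% of all genes passed. Mapk8 differed by -0.61 ± 0.21 (SE) and Mapk9 by -0.32 ± 0.18 (SE), neither at p under 0.01. Mapk3, an ERK kinase, was at 168 ± 28.1 TPM (SD, n = 8) in WT vehicle mice and 162 ± 7.9 TPM (SD, n = 7) in Brd1+/- vehicle mice, with a difference of -0.03 ± 0.10 (SE). Mapk7, which encodes ERK5, differed by -0.26 ± 0.14 (SE).

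Over a list of 66 other genes of the pathway, written from general knowledge with earlier results of these data known, 63 were tested under vehicle. Of these, 1 was higher and 9 were lower in Brd1+/- mice at p under 0.01, or 15.9%, beside 13.6% of all 23200 genes tested (1.47% higher and 12.1% lower). The split between directions depended on the scaling, since 4 were higher and 5 lower under both median-of-ratios scaling and quantile normalization, where 931 and 1058 of all genes were higher and 1207 and 1153 lower. At an FDR of 5% the count was 0 in this fit, with 22 at an unadjusted p under 0.05 (34.9%, beside 30.9% of all genes). The count rose together with that of all genes in other fits. It was 8 with genes limited to a mean TPM of at least 1 (13.3%, beside 10.5% of all genes), 24 with mice weighted (38.1% beside 29.5%) and 13 when blocked by mouse number (20.6% beside 15.4%). It was 15 with all 4 groups in one fit (23.4% beside 19.5%), 16 without WT mouse 6 (25.4% beside 19.9%) and 17 without WT mouse 8 (27.0% beside 23.8%). The share at p under 0.01 was near that of all genes, and the median difference of the list, -0.17, was near the median of all genes. Among MAP3 kinases 4 of 24 passed, among MAP kinases 4 of 13, among MAP kinase activated kinases 0 of 11 and among scaffolds and adaptors 2 of 15. The gene that was higher was Map3k1, which activates the JNK branch, at 3.97 ± 1.62 TPM (SD, n = 8) in WT mice and 6.505 ± 0.63 TPM (SD, n = 7) in Brd1+/- mice, with a difference of 0.66 ± 0.18 (SE, limma adjusted p = 0.0556). The lower genes with the smallest p were the JNK scaffold Mapk8ip3, with a difference of -0.46 ± 0.10 (SE, limma adjusted p = 0.0556), Taok3, with a difference of -0.70 ± 0.16 (SE, limma adjusted p = 0.0556), and Mapk12. Mapk8ip3 differed by -0.27 under median-of-ratios scaling, -0.24 under quantile normalization and -0.33 with the cortical score as a covariate (limma adjusted p = 0.274), and Taok3 by -0.51, -0.50 and -0.40 (limma adjusted p = 0.318). Map3k1, Mapk8ip3 and Taok3 each passed an FDR of 5% in the same 4 fits as Mapk11, Mapk12 and Mapk10, where 10.5% to 29.5% of all genes passed. The difference of Map3k1 was 0.48 with the cortical score as a covariate (limma adjusted p = 0.427) and 0.39 with the striatal score (limma adjusted p = 0.533). The count of 10 at p under 0.01 fell to 5 with the cortical score as a covariate (7.94%, beside 2.68% of all genes), to 3 with the striatal score (4.76% beside 1.48%) and to 6 without WT mice 1 and 2 (9.52% beside 5.89%). It rose to 16 without WT mouse 6 (25.4% beside 19.9%) and to 17 without WT mouse 8 (27.0% beside 22.4%).

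**Figure D5:**
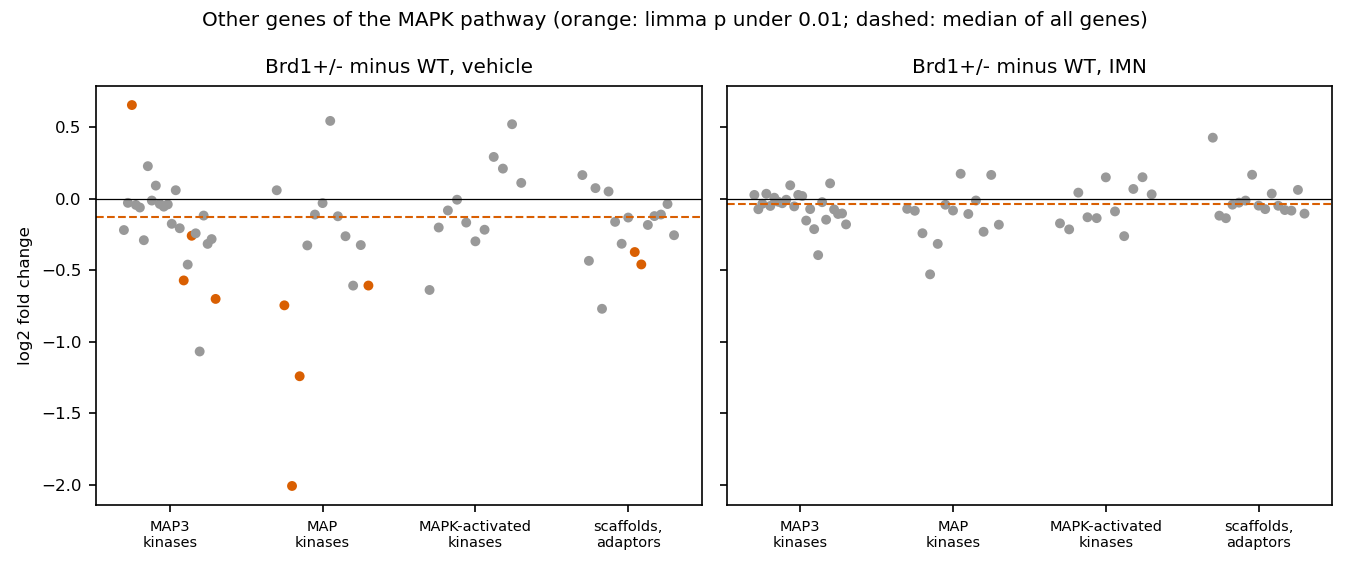
Differences in log2(TPM + 1) between Brd1+/- and WT mice under vehicle (left) and IMN (right) for the other genes of the pathway, by their place in it, with 1 point per gene, genes at limma p under 0.01 in orange and the median of all genes tested as a dashed line. Under vehicle 10 of 63 genes were at p under 0.01, the lowest being Mapk11 at -2.01, and under IMN 0 of 63 were.

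Under IMN, 0 of 63 genes of the list differed between genotypes at p under 0.01 by limma, beside 0.703% of all genes. At p under 0.05 there were 2, or 3.17%, beside 3.92% of all genes, so the share was near that of all genes. These were the p38 kinases Mapk12 and Mapk14. Mapk12 had mean levels of 2.15 TPM in WT mice and 1.12 TPM in Brd1+/- mice, with a difference of -0.53 ± 0.19 (SE, limma adjusted p = 0.998). Mapk14 ranged from 23.5 through a median of 31.04 to 33.9 TPM in WT mice and from 18.3 through 23.0 to 32.9 TPM in Brd1+/- mice, with a difference of -0.31 ± 0.12 (SE, limma adjusted p = 0.998). The groups overlapped in both genes.

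Between vehicle and WT IMN mice, 7 of 63 genes differed at p under 0.01, 1 higher and 6 lower under IMN, or 11.1%, beside 6.95% of all 23579 genes tested (1.35% higher and 5.6% lower). With median-of-ratios scaling 1 was higher and 3 were lower, beside 674 and 734 of all genes, and with quantile normalization 1 was higher and 1 lower, beside 712 and 655 of all genes. At an FDR of 5% the limma count was 0 in this fit, with 17 at an unadjusted p under 0.05 (27.0%, beside 23.1% of all genes). It was 22 with mice weighted (34.9%, beside 20.6% of all genes), 8 with all 4 groups in one fit (12.5% beside 9.02%), 5 without WT vehicle mouse 6 (7.94% beside 5.03%) and 9 without WT vehicle mouse 8 (14.3% beside 10.5%). Map3k1 was higher under IMN, with 6.08 ± 1.10 TPM (SD, n = 8) and a difference of 0.56 ± 0.18 (SE, limma adjusted p = 0.141). The lower genes with the smallest p were Mapk8ip3 (-0.37 ± 0.09, SE), the ERK scaffold subunit Lamtor3 (-0.43 ± 0.14, SE) and Mapk10 (-0.61 ± 0.20, SE), all with a limma adjusted p of 0.141. The count depended on single mice, as did that of all genes. It was 2 or 3 when any of WT vehicle mice 1, 2, 3, 4, 5 and 7 or of WT IMN mice 1, 2, 3, 4, 6 and 7 was left out (3.17% to 4.76%, beside 3.88% to 6.59% of all genes). The list's count was 14 without WT vehicle mouse 6 (22.2%, beside 13.6% of all genes) and 11 without WT vehicle mouse 8 (17.5% beside 15.3%), and it was 1 with the cortical score as a covariate (1.59% beside 1.56%). In that fit Map3k1, Lamtor3 and Mapk10 were not at p under 0.01, with differences of 0.42, -0.39 and -0.22. In Brd1+/- mice 1 of 62 genes differed at p under 0.01, or 1.61%, beside 1.83% of all 23020 genes tested (0.869% higher and 0.964% lower). This was the MAP3 kinase Map3k3, with 22.6 ± 1.8 TPM (SD, n = 7) under vehicle and 18.6 ± 2.5 TPM (SD, n = 8) under IMN, a difference of -0.28 ± 0.08 (SE, limma adjusted p = 0.443). With the striatal score as a covariate the difference was about as large, -0.27, and was no longer at p under 0.01 (limma adjusted p = 0.701).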

How the data were processed

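The authors sequenced single-end CPu reads (BGISEQ-500), aligned them to GRCm38 with HISAT2 2.1.0 and quantified genes with StringTie 1.3.4. The values they deposited are TPM, which keeps no read depth, so no counting error is given and precision rests on the spread between mice. Sums of TPM per mouse lay between 999787 and 999918. Strandedness is not given in the sources used here. Groups came from the sample labels, which name no batch, and 0 columns were unused. GENCODE M21 gave symbols for 52403 of 52636 identifiers.

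Pairs of groups were each fitted in limma 3.58.1 (R 4.3.3) to log2(TPM + 1) with a trended prior. A gene entered a fit when over 0.1 TPM in 7 or more mice. Tests were two-sided, at p under 0.01 and a Benjamini-Hochberg FDR of 5% over all genes tested. edgeR, the authors' test, needs counts and was not run. The fit was also run on simulated data with independent noise of equal spread in both groups. That does not test it for groups of unequal spread, such as the WT vehicle mice. Named genes were the members, their substrates (one is not reported here), Brd1, up to 3 list genes per direction and comparison with the smallest p, the 5 most like Map2k3, and markers. Members and lists were chosen with earlier results of these data known. Alternatives changed the pseudocount (0.1), the filter (mean TPM of 1, or none), the scaling (median-of-ratios, quantile), the prior, mouse weights, pairing by mouse number, the groups fitted together, marker scores as covariates, and the mice included.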

Additional observations from a re-analysis of the deposited data

Results flagged for a closer look

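Of 40 sets of values tested for a single extreme mouse (the 7 members and the shares in 3 pairs, each in the 4 groups), 1 was flagged, where chance flags about 1 in 20. Brd1+/- vehicle mouse 3 had 168 TPM of Map2k1, the nearest mouse of its group had 134 TPM and the lowest 122 TPM, so that the gap took 0.742 of the range of the group.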

How the results depend on the processing

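The difference of Map2k3 between the vehicle administered groups ranged from -2.07 to -1.23 over the 12 alternatives and from -1.88 to -1.56 with single mice left out. As these values led to the choice of the family, their kept direction is a description only. The count of members at p under 0.01 between genotypes under IMN was 0 in all 11 alternatives and with any mouse left out, where 0.512% to 1.09% of all genes passed. The signs of the small differences of Map2k4 and Map2k6 under IMN turned with single mice left out, from -0.0626 to 0.0659 and from -0.0159 to 0.106. Map2k1 under vehicle moved to 0.04 under quantile normalization.

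Counts of pathway genes moved more, and the cause was not tested. Under vehicle the count of 10 was 23 with sample weights, 16 with all groups in one fit, 5 with the cortical score, 3 with the striatal score, 6 without WT mice 1 and 2, and 8 to 17 with single mice left out. Of all genes, 26.5%, 19.7%, 2.68%, 1.48% and 5.89% were at p under 0.01 in the first 5 of these fits and 8.89% to 22.4% with single mice left out, against 13.6%. Under IMN the count of 0 was 1 with quantile normalization, with the cortical score and with the striatal score, and 0 to 1 with single mice left out, of which WT mice 2 and 3 and Brd1+/- mice 3 and 4 gave 1. In these fits the share of all genes at p under 0.01 was 0.681%, 0.836% and 0.985%, and 0.550% to 1.09% with single mice left out, against 0.703%. For IMN in WT mice the count of 7 was 4 with median-of-ratios scaling, 2 with quantile normalization, 22 with sample weights, 12 with all groups in one fit, 1 with the cortical score, 2 with the striatal score, 2 without mice 1 and 2, and 2 to 14 with single mice left out. Of all genes, 5.97%, 5.80%, 20.3%, 13.5%, 1.56%, 1.28% and 2.55% were at p under 0.01 in the first 7 of these fits and 3.88% to 15.3% with single mice left out, against 6.95%. For IMN in Brd1+/- mice the count of 1 was 0 with the striatal score and 0 to 2 with single mice left out, of which vehicle mouse 5 gave 0 and vehicle mouse 7 and IMN mouse 3 gave 2. Here 1.48% of all genes were at p under 0.01 with the striatal score and 1.34% to 2.18% with single mice left out, against 1.83%. Of the 5 genes most like Map2k3 in the IMN administered mice, 3 were shared under median-of-ratios scaling, without Mapk14 and Anp32a.

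Mouse numbers name samples, and the labels do not say whether they pair mice. Of the pairs with the same number, 1 of 7, 2 of 8, 2 of 8 and 3 of 7 correlated above 0.1 in the 4 comparisons. Such correlations cannot decide whether mice were paired, as tissue content also differs between libraries. With the mouse number as a block the counts were 15 under vehicle, 0 under IMN, 2 for IMN in WT mice and 1 for IMN in Brd1+/- mice, beside 17.7%, 0.673%, 5.08% and 2.15% of all genes, and Map2k3 differed by -1.88 under vehicle, where WT mouse 8 has no partner and adds nothing. Of the mice, 0 of 7, 2 of 8, 1 of 8 and 2 of 7 correlated best with their own number. Depth is unknown from TPM and limits what can be said of genes near 0, such as Mapk13.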
